A study of Mus with 8 samples.

Results

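The genes described here are 10 genes of glucose uptake, glycolysis and lactate production, of 31269 gene symbols counted by RNA sequencing in mouse uterus at day 6 of pseudopregnancy, a state under progesterone that a sterile mating brings on. They are the glucose transporters Slc2a1, Slc2a3 and Slc2a4, the hexokinases Hk1 and Hk2, the regulator Pfkfb3, pyruvate kinase Pkm, the lactate dehydrogenases Ldha and Ldhb, and Bnip3, a mitophagy receptor. They were chosen by symbol, with the difference between the groups already known and because they differ in both directions. That difference is therefore given for them as a description, with no test. All 10 had a row in the table and passed the filter on low counts, as did 17629 genes in all.

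The condition studied was a lack of PGR, the progesterone receptor, in the muscle wall of the uterus or myometrium (4 libraries), set against controls (4 libraries). The labels give the genotype only as the deficiency or as control. They name no allele, no Cre driver, no strain and no age, and they do not say whether a library is 1 animal or a pool, so the spread between libraries may be partly technical. The labels place the tissue at implantation sites, which a pseudopregnant uterus lacks. Total counts ran from 71377993 to 72364750 in the libraries labelled deficient and from 70296369 to 71303026 in the controls.

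Pgr, the targeted gene, was measured at 187, 184, 177 and 160 CPM in deficient-labelled libraries 1 to 4, against 131, 180, 144 and 171 CPM in the controls (CPM, counts over library size with TMM scaling, the unit of all levels below). The groups overlapped, and deficient over control gave a log2 difference of 0.18 ± 0.11 (SE; adjusted p = 0.338, edgeR), the direction of all differences below. These counts do not bear out the label. They cannot contradict it either, since they cover the whole tissue and the whole gene, and the labelled deficiency is in the myometrium. The group is therefore called "labelled deficient" and each direction rests on the label.

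Glucose enters cells through facilitative transporters of the SLC2A (GLUT) family and is trapped by hexokinase as glucose 6-phosphate. Glycolysis then runs through phosphofructokinase, which the products of the PFKFB enzymes stimulate, to pyruvate kinase. Lactate dehydrogenase interconverts pyruvate and lactate as a tetramer of A (muscle-type) and B (heart-type) subunits, of which A-rich forms are typical of tissues that make lactate and B-rich forms of tissues that oxidise it. In the uterus, glucose uptake and lactate production are known for their part in stromal decidualization.

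The 10 genes went in both directions: 7 had a positive and 3 a negative log2 difference. Hk2 and Ldha lay higher in all 4 libraries labelled deficient than in any control, and Slc2a1, Ldhb and Bnip3 lay lower in all 4. The other 5 overlapped between the groups. Over all genes tested, 7.61% lay wholly above and 8.66% wholly below the controls (16.3% in all). Since the members were picked on this contrast, nothing is read from their share. No gene in the table passed edgeR's quasi-likelihood test at an adjusted p of 0.05 (0 of 17629, or 0%; smallest adjusted p 0.0715), while 24.8% had an unadjusted p under 0.05 (4372 genes) and DESeq2 called 2488 (14.1%). The median log2 difference of all genes tested was 0.01, and 52.0% of them had a positive one.

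**Figure D1:**
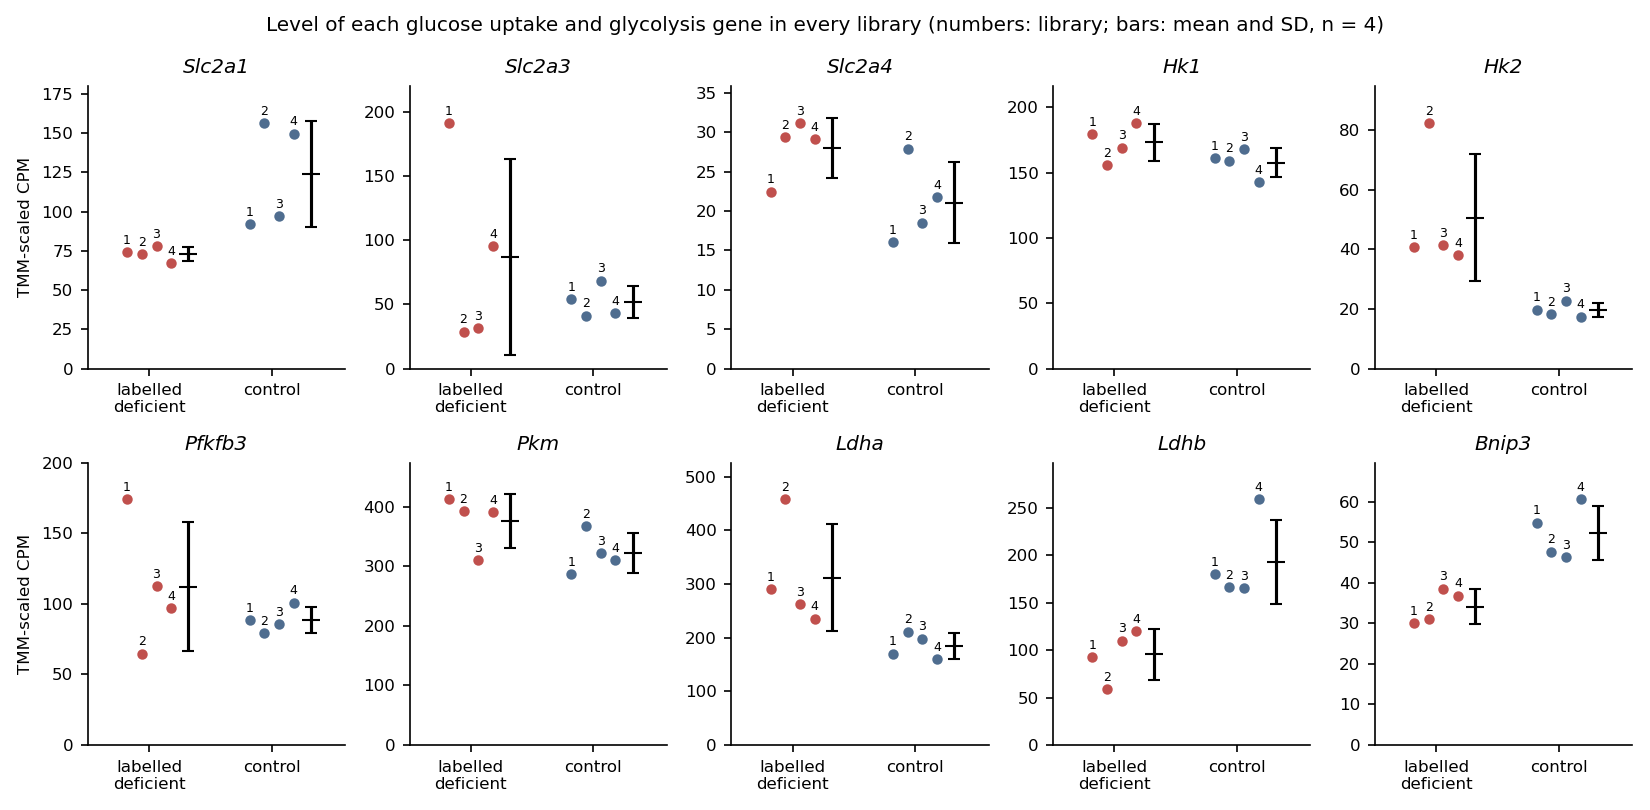
Level of each of the 10 genes in TMM-scaled CPM (y axis, from 0) in the libraries labelled deficient (red, left) and the controls (blue, right), with library numbers on the points and the mean and SD of 4 libraries as bars. Hk2 and Ldha lie above and Slc2a1, Ldhb and Bnip3 below every control, while Slc2a3 spreads from 28.7 to 192 CPM among the libraries labelled deficient.

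Among the transporters, Slc2a1 lay below the controls, Slc2a3 lay on both sides of them and Slc2a4 overlapped with them. Slc2a1 encodes GLUT1, the widely expressed basal glucose transporter (chromosome 4, 119108745 to 119137330, GRCm38.p6). It measured 74.3, 72.9, 78.1 and 67.1 CPM in deficient-labelled libraries 1 to 4, against 92.2, 157, 97.2 and 149.6 CPM in the controls. All 4 libraries labelled deficient lay below the lowest control, and they were close to each other, whereas the controls formed a lower and a higher pair. The means were 73.1 ± 4.59 CPM in the libraries labelled deficient and 123.9 ± 33.9 CPM in the controls (SD, n = 4 each), a fold of 0.590 (log2 difference -0.76 ± 0.18 SE). The summed level of 10 smooth muscle markers ran from 4565 to 5326 CPM in the libraries labelled deficient. Among the controls it was higher in libraries 2 and 4, which were also higher in Slc2a1, at 6464 and 6775 CPM, against 4574 and 5410 CPM in control libraries 1 and 3. All 10 markers had negative log2 differences, and none of them lay wholly outside the controls. The part of these markers in the Slc2a1 difference was not tested, and in tissue RNA fewer cells of a type and less RNA per cell cannot be told apart.

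Slc2a3 encodes GLUT3, a high-affinity glucose transporter best known from neurons (chromosome 6, 122727809 to 122802363). It was the most uneven member, at 192, 28.7, 31.3 and 95.7 CPM in deficient-labelled libraries 1 to 4, against 54.0, 41.3, 68.4 and 43.0 CPM in the controls. Libraries 1 and 4 labelled deficient lay above all controls, and libraries 2 and 3 below all controls. The highest of the libraries labelled deficient was 6.67 times the lowest, against 1.66 times among the controls. The log2 difference of 0.75 ± 0.58 (SE) therefore describes neither pair. Without library 1 labelled deficient it was 0.01, and without libraries 2 and 3 it was 1.48. The summed level of 10 endothelial markers ordered the libraries labelled deficient in the same way, at 1608, 818, 948 and 1413 CPM in libraries 1 to 4, against 1226 to 1488 CPM in the controls. Of these markers 2 had positive and 8 negative differences, and all 10 were detected in every library. Their part in the Slc2a3 pattern was not tested.

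Slc2a4 encodes GLUT4, the insulin-responsive transporter of muscle and fat (chromosome 11, 69942286 to 69948216). It measured 22.4, 29.4, 31.2 and 29.1 CPM in deficient-labelled libraries 1 to 4, against 16.02, 27.9, 18.5 and 21.8 CPM in the controls. Libraries 2, 3 and 4 labelled deficient lay above all controls, and library 1 fell within their range (log2 difference 0.41 ± 0.18 SE). Summed skeletal muscle markers ran from 53.7 to 71.4 CPM in the libraries labelled deficient against 76.8 to 112 CPM in the controls, and summed adipocyte markers from 10.5 to 21.4 CPM against 13.0 to 29.8 CPM. Of the 7 adipocyte markers, Adipoq, Plin1, Lep, Cidec and Cfd had no count in at least 1 library, as had Myh4 and Myh1 of the 7 skeletal muscle markers.

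The ratio of Slc2a4 to Slc2a1 counts, which does not depend on the scaling of libraries, was 0.302, 0.403, 0.399 and 0.434 in deficient-labelled libraries 1 to 4, against 0.174, 0.178, 0.190 and 0.146 in the controls. The groups were apart, and the lowest of the libraries labelled deficient stood at 1.59 times the highest control. Ratios are made of members picked on this contrast, so nothing is read from their separation. Transcript length enters such a ratio equally in every library, so it compares libraries and not the abundance of the transcripts. The ratio of Slc2a3 to Slc2a1 counts overlapped, from 0.394 to 2.58 in the libraries labelled deficient against 0.264 to 0.704 in the controls.

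Of the hexokinases, Hk1 overlapped between the groups and Hk2 did not. Hk1, the broadly expressed form that binds mitochondria (chromosome 10, 62268855 to 62379920), measured 179, 156, 169 and 188 CPM in deficient-labelled libraries 1 to 4, against 161, 159, 168 and 143 CPM in the controls. The groups overlapped, and the spread within each was narrow (log2 difference 0.13 ± 0.08 SE). A long non-coding gene, Hk1os, shares 23378 bases with the Hk1 locus, and whether counting used strand is not given in the sources used here. Its level was low, 1.02 to 1.57 CPM in the libraries labelled deficient and 1.26 to 2.26 CPM in the controls.

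Hk2, the inducible hexokinase of insulin-sensitive and growing tissues (chromosome 6, 82725025 to 82774454), had the most positive difference of the 10 genes. It measured 40.6, 82.4, 41.3 and 38.0 CPM in deficient-labelled libraries 1 to 4, against 19.7, 18.3, 22.7 and 17.4 CPM in the controls. Library 2 labelled deficient stood far above the other libraries, and the remaining 3 lay together, all above the highest control. The log2 difference was 1.37 ± 0.26 (SE), a fold of 2.59, and it was 1.04 without library 2 labelled deficient. The count ratio of Hk2 to Hk1 was 0.226, 0.529, 0.244 and 0.202 in deficient-labelled libraries 1 to 4, against 0.122, 0.115, 0.135 and 0.122 in the controls, again with no overlap.

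Pfkfb3 makes the sugar bisphosphate that activates phosphofructokinase (chromosome 2, 11471430 to 11554071). It measured 174, 64.8, 112.7 and 96.9 CPM in deficient-labelled libraries 1 to 4, against 88.3, 79.3, 85.5 and 100.9 CPM in the controls. As with Slc2a3, library 1 labelled deficient was highest and library 2 lowest of the 8, and the controls lay between them. The log2 difference was 0.34 ± 0.26 (SE), and it was 0.05 without library 1 and 0.54 without library 2 labelled deficient.

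Pkm, which encodes the muscle-type pyruvate kinases (chromosome 9, 59656576 to 59679372), measured 413, 393, 310.5 and 391 CPM in deficient-labelled libraries 1 to 4, against 287, 367, 322 and 311.0 CPM in the controls. Libraries 1, 2 and 4 labelled deficient lay above all controls, and library 3 lay among them (log2 difference 0.23 ± 0.11 SE). Counts per gene do not separate the alternatively spliced M1 and M2 forms of this enzyme.

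The lactate dehydrogenase subunits lay on opposite sides. Ldha, the A subunit (chromosome 7, 46842274 to 46855627), measured 290.3, 458, 263 and 235 CPM in deficient-labelled libraries 1 to 4, against 170.0, 211, 198 and 160.1 CPM in the controls. Every library labelled deficient lay above the highest control, and library 2 was the highest (log2 difference 0.75 ± 0.21 SE, a fold of 1.69). Ldhb, the B subunit (chromosome 6, 142490249 to 142507957), measured 92.7, 59.1, 110.0 and 119.9 CPM in deficient-labelled libraries 1 to 4, against 180.0, 166, 165 and 259 CPM in the controls. Every library labelled deficient lay below the lowest control, and library 2 was the lowest (log2 difference -1.01 ± 0.24 SE, a fold of 0.495).

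The count ratio of Ldha to Ldhb was 3.13, 7.75, 2.39 and 1.96 in deficient-labelled libraries 1 to 4, against 0.945, 1.27, 1.20 and 0.619 in the controls. Its mean was 3.81 ± 2.67 in the libraries labelled deficient and 1.01 ± 0.293 in the controls (SD, n = 4 each). The lowest of the libraries labelled deficient stood at 1.55 times the highest control. With Ldha wholly above and Ldhb wholly below the controls, this ratio could not overlap. Ldhc, the testis-type subunit, was near the detection limit, at 0.113 to 0.192 CPM in the libraries labelled deficient and 0.0958 to 0.254 CPM in the controls.

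**Figure D2:**
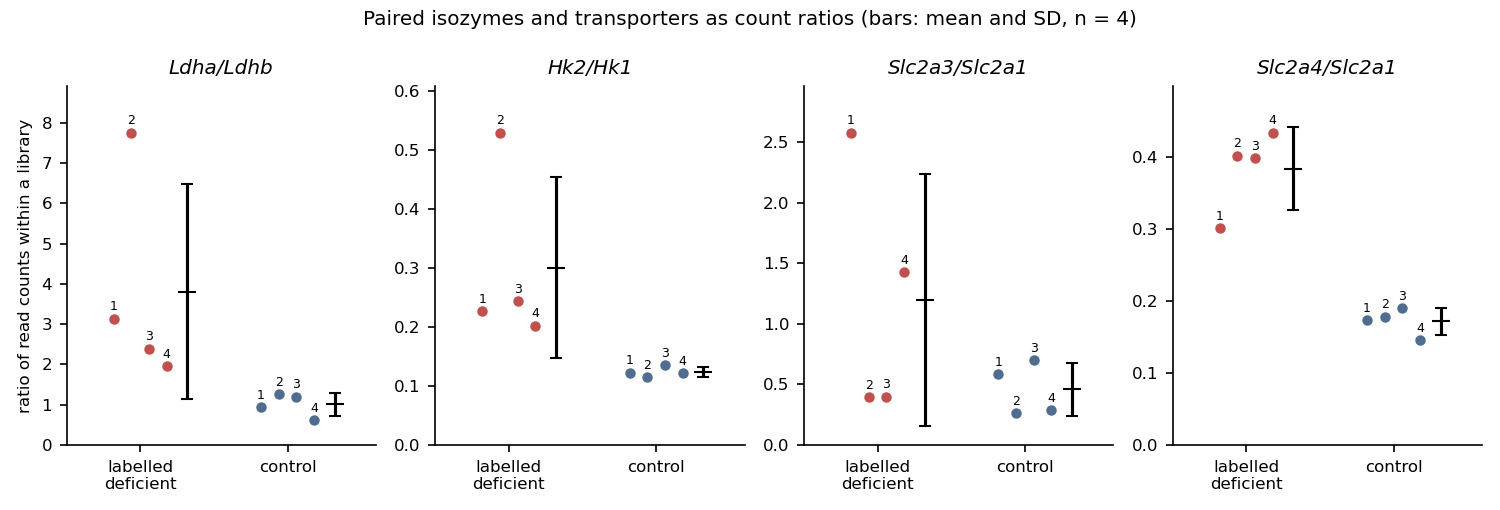
Ratio of read counts within each library (y axis, from 0) for Ldha over Ldhb, Hk2 over Hk1, Slc2a3 over Slc2a1 and Slc2a4 over Slc2a1, with libraries labelled deficient in red on the left, controls in blue on the right, and bars for the mean and SD of 4 libraries. The groups do not overlap for Ldha over Ldhb, Hk2 over Hk1 and Slc2a4 over Slc2a1, and they overlap for Slc2a3 over Slc2a1. The genes were picked on this contrast, so nothing is read from the separation.

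Bnip3 (chromosome 7, 138890836 to 138909506) encodes a receptor on the outer mitochondrial membrane that directs mitochondria to autophagy. It is a known target of hypoxia-inducible factors, as are other members, Slc2a1, Ldha and Hk2 among them. It measured 30.0, 31.0, 38.5 and 36.8 CPM in deficient-labelled libraries 1 to 4, against 54.8, 47.7, 46.2 and 60.5 CPM in the controls. The 4 libraries labelled deficient all lay below the controls, with an SD of 12.4% of the mean in the libraries labelled deficient and 12.7% in the controls. The log2 difference was -0.62 ± 0.12 (SE), a fold of 0.652.

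**Figure D3:**
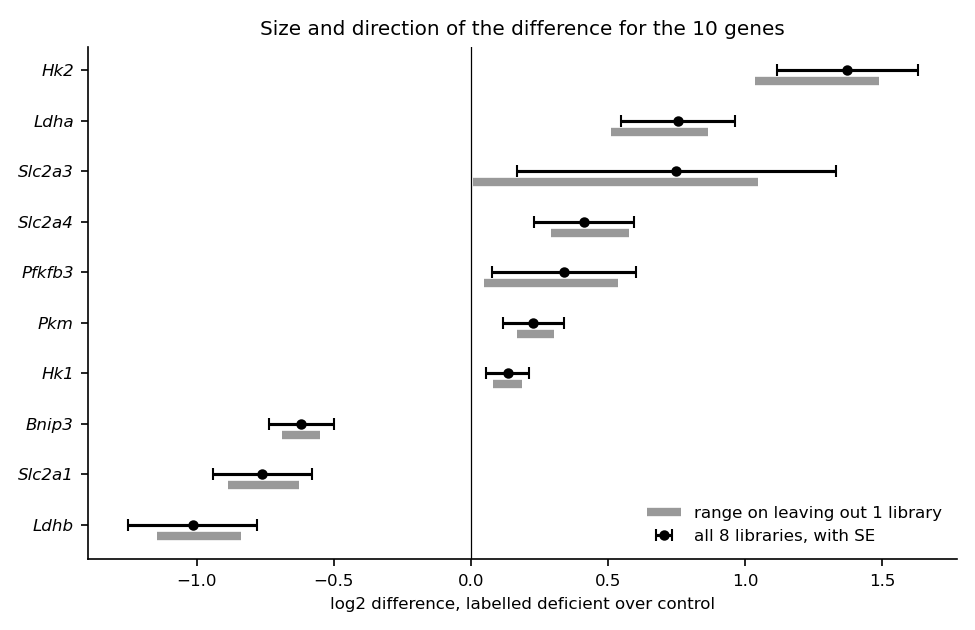
Log2 difference of the libraries labelled deficient over the controls (x axis) for the 10 genes, with the SE as a black bar and the range on leaving out 1 library at a time in grey. Hk2 is at 1.37 and Ldhb at -1.01, and the grey ranges of Slc2a3 and Pfkfb3 reach down to 0.01 and 0.05.

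The spread between libraries differed by gene. In 7 of the 10 genes the coefficient of variation was higher among the libraries labelled deficient, and over all genes tested its median was 16.4% in them and 10.7% in the controls. Slc2a1 went the other way, with 6.28% in the libraries labelled deficient and 27.3% in the controls. Slc2a3 had 88.0% in the libraries labelled deficient and 24.2% in the controls.

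The libraries labelled deficient also differed in their cell type markers. Summed epithelial markers were 1266, 3604, 2624 and 1387 CPM in deficient-labelled libraries 1 to 4, against 1289 to 1431 CPM in the controls, and 8 of the 10 markers had positive differences. Libraries 2 and 3 thus stood apart from library 1, library 4 and the controls. Library 2, highest in this sum, was also highest in Hk2 and Ldha and lowest in Ldhb, while library 3 was close to libraries 1 and 4 in Hk2. Summed stromal markers, at 10812, 12057, 10162 and 10101 CPM in deficient-labelled libraries 1 to 4, ordered these libraries as Ldha did. So did summed lymphocyte and natural killer cell markers, at 311, 405, 251 and 227 CPM, while the epithelial sum did not. Without libraries 2 and 3 the log2 differences were 1.01 for Hk2, 0.51 for Ldha, -0.85 for Ldhb, -0.80 for Slc2a1 and -0.64 for Bnip3.

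Sums of the other marker lists were apart in some cases and overlapped in others. Those of 10 stromal markers ran from 10101 to 12057 CPM in the libraries labelled deficient against 7750 to 10002 CPM in the controls, with 5 markers higher and 5 lower. All 10 macrophage markers had positive differences, with overlapping sums of 1089 to 1488 CPM in the libraries labelled deficient and 864 to 1167 CPM in the controls. Of 12 lymphocyte and natural killer cell markers 11 had positive differences, with overlapping sums of 227 to 405 CPM in the libraries labelled deficient and 140 to 237 CPM in the controls. Of the 7 erythroid markers listed, 6 had a row and 5 were tested, and 4 of those were lower, with sums of 38.4 to 59.8 CPM in the libraries labelled deficient against 73.4 to 105 CPM in the controls. Of the macrophage markers 6 lay wholly above the controls, as did 3 lymphocyte and natural killer cell, 2 epithelial and 1 erythroid marker. Over all genes tested, 7.61% did. Wholly below the controls lay 3 erythroid, 1 stromal and 1 skeletal muscle marker, against 8.66% of all genes tested. The part of these markers in the members' differences was not tested.

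**Figure D4:**
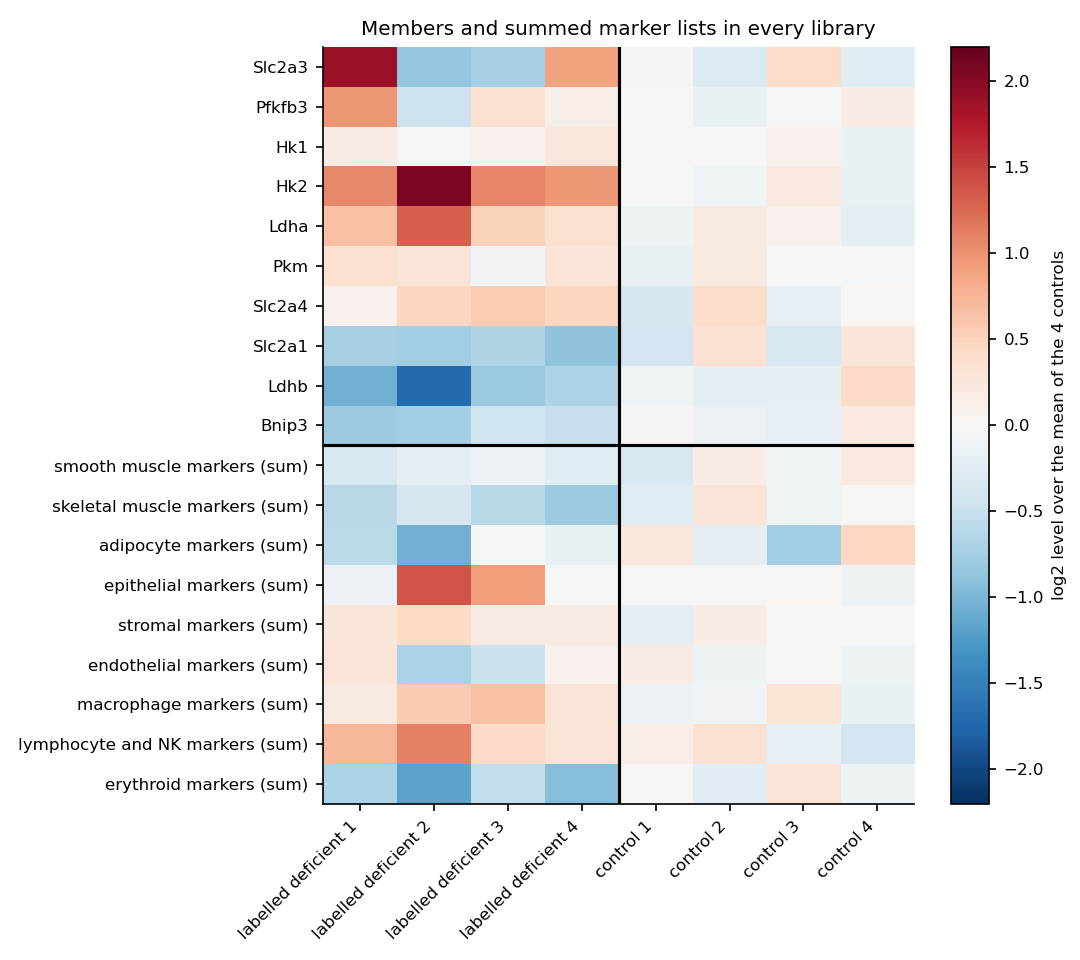
Level in each library (columns) over the mean of the 4 controls, as a log2 value (colour), for the 10 genes above the line and summed marker lists below it. Library 2 labelled deficient is highest in Hk2 (2.08), Ldha (1.31) and the epithelial sum (1.38), and library 1 is highest in Slc2a3 (1.89) and Pfkfb3 (0.97).

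In the rest of the glycolytic pathway 19 of 23 tested genes had positive and 4 negative log2 differences (52.0% of all genes tested were positive). Of 24 other glycolytic enzymes and regulators listed, 23 were tested, 0 passed in edgeR at the adjusted threshold (5 in DESeq2), and at an unadjusted p under 0.05, 7 were higher (13.0% of all genes were) and 1 was lower (11.8% of all genes were). The list's median log2 difference was 0.17, against 0.01 for all genes. The count of higher genes was 4 without control library 1, without control library 4, or without libraries 2 and 3 labelled deficient. Limma-voom called none at the adjusted threshold in this list or in those that follow. Among the widely expressed enzymes, Gpi1 was at 0.02 ± 0.05, Aldoa at 0.09 ± 0.10 and Gapdh at 0.17 ± 0.12 (SE; adjusted p = 0.875, 0.555 and 0.43, edgeR). Pgam1 was at 0.27 ± 0.10, Tpi1 at 0.29 ± 0.12, Eno1 at 0.32 ± 0.17 and Pgk1 at 0.40 ± 0.17 (SE; adjusted p = 0.17, 0.191, 0.28 and 0.196, edgeR). Eno3, the 1 gene lower at an unadjusted p under 0.05, lay wholly below the controls at -0.49 ± 0.15. Pfkm was at -0.21 ± 0.15 (SE; adjusted p = 0.117 for Eno3 and 0.407 for Pfkm, edgeR). Gapdh in particular has many processed copies in the genome, between which reads can be split.

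Genes of this list with small p-values included less common isozymes, none of which passed the adjusted threshold in edgeR. Aldoc, the brain-type aldolase, measured 6.61, 30.9, 15.8 and 4.75 CPM in deficient-labelled libraries 1 to 4, against 3.65, 2.71, 3.98 and 3.92 CPM in the controls (log2 difference 2.02 ± 0.56, adjusted p = 0.104, edgeR). It was highest in libraries 2 and 3, the libraries with the higher epithelial sums. Hk3, a hexokinase of myeloid cells, averaged 15.4 ± 4.55 CPM in the libraries labelled deficient and 8.24 ± 1.98 CPM in the controls (SD, n = 4 each; 0.90 ± 0.25 SE, adjusted p = 0.104, edgeR), beside the macrophage markers given above. Pfkfb4, a relative of Pfkfb3, was even within each group, at 28.4 ± 0.908 CPM in the libraries labelled deficient and 21.7 ± 2.64 CPM in the controls (0.39 ± 0.10 SE, adjusted p = 0.0991, edgeR).

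Other hexose transporters included genes that were high in single libraries. Of 13 listed 11 were tested, 0 passed in edgeR (1 in DESeq2), and 3 were higher and 1 lower at an unadjusted p under 0.05, where 13.0% of all genes were higher and 11.8% lower. The median log2 difference was -0.09, with 5 positive and 6 negative differences (52.0% of all genes tested were positive). In limma-voom with all libraries, and in edgeR without libraries 2 and 3 labelled deficient, 0 were higher and 2 lower. Without any 1 of control libraries 1, 3 and 4 and library 2 labelled deficient, 1 was higher and 0 lower, and without library 4 labelled deficient 2 were lower. Slc5a9, a sodium-coupled transporter, measured 15.7, 107.4, 31.7 and 10.3 CPM in deficient-labelled libraries 1 to 4, against 5.17, 11.5, 11.4 and 11.1 CPM in the controls (adjusted p = 0.139, edgeR). Slc5a1, the sodium-coupled glucose transporter of epithelia, measured 6.69, 23.7, 13.5 and 2.01 CPM in deficient-labelled libraries 1 to 4, against 2.71, 5.47, 1.79 and 4.51 CPM in the controls (adjusted p = 0.185, edgeR). Both were highest in libraries 2 and 3, those with the higher epithelial sums. Slc2a6 averaged 8.42 ± 5.19 CPM in the libraries labelled deficient and 4.30 ± 0.913 CPM in the controls, and Slc2a8 18.6 ± 1.59 CPM in the libraries labelled deficient and 22.1 ± 2.08 CPM in the controls (SD, n = 4 each; adjusted p = 0.177 and 0.173, edgeR).

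Genes that carry pyruvate and lactate onwards went both ways, with 14 positive and 6 negative differences (52.0% of all genes tested were positive). Of 20 tested, 0 passed in edgeR (5 in DESeq2), and 2 were higher and 4 lower at an unadjusted p under 0.05, where 13.0% of all genes were higher and 11.8% lower (median log2 difference 0.11). The higher count was 1 without control library 1, 3 or 4, and 5 without libraries 2 and 3 labelled deficient. Mpc2, a subunit of the mitochondrial pyruvate carrier, measured 18.6, 21.5, 19.4 and 19.6 CPM in deficient-labelled libraries 1 to 4, against 25.3, 31.7, 30.7 and 35.9 CPM in the controls (log2 difference -0.64 ± 0.11, adjusted p = 0.0906, edgeR). The groups did not overlap, whereas its partner Mpc1 was at 0.11 ± 0.09. Pdk2, a kinase that inhibits pyruvate dehydrogenase, averaged 68.4 ± 14.0 CPM in the libraries labelled deficient and 95.3 ± 7.43 CPM in the controls, and Pdp1, a phosphatase that relieves this inhibition, averaged 25.6 ± 5.97 CPM in the libraries labelled deficient and 38.7 ± 4.82 CPM in the controls (SD, n = 4 each; adjusted p = 0.116 and 0.108, edgeR). Ldhd, a mitochondrial dehydrogenase of D-lactate, was at 0.68 ± 0.22 (SE; adjusted p = 0.13, edgeR). The lactate transporters Slc16a1 (0.49 ± 0.25) and Slc16a3 (0.53 ± 0.32) had adjusted p-values of 0.262 and 0.321 in edgeR.

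**Figure D5:**
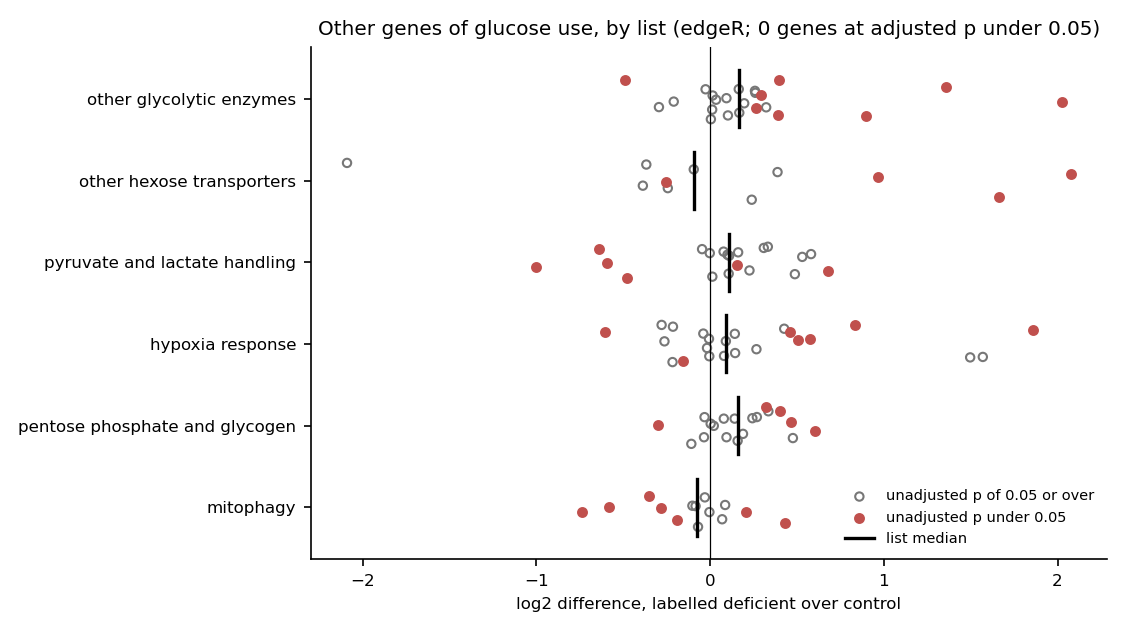
Log2 difference of the libraries labelled deficient over the controls (x axis) for the tested genes of 6 pathway lists (rows), filled in red where the unadjusted p in edgeR was under 0.05, with the list median as a black bar. The medians lie between -0.09 and 0.17, and 0 genes passed the adjusted threshold.

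Genes of the hypoxia response were found on both sides, with 13 positive and 10 negative differences (52.0% of all genes tested were positive). Of 23 tested, 0 passed in edgeR (5 in DESeq2), and 5 were higher and 2 lower at an unadjusted p under 0.05, where 13.0% of all genes were higher and 11.8% lower (median log2 difference 0.09). The higher count was 3 without library 2 labelled deficient. Egln1, an oxygen-sensing prolyl hydroxylase, averaged 137.9 ± 20.1 CPM in the libraries labelled deficient and 92.6 ± 10.1 CPM in the controls (SD, n = 4 each; 0.57 ± 0.12 SE, adjusted p = 0.0906, edgeR). Car12, a membrane carbonic anhydrase, measured 716, 1248, 396 and 335 CPM in deficient-labelled libraries 1 to 4, against 170, 326, 130 and 118 CPM in the controls (1.86 ± 0.49 SE, adjusted p = 0.102, edgeR). Higd1a, a mitochondrial protein induced by hypoxia, was at 0.46 ± 0.12 and Mxi1, a MYC antagonist, at -0.61 ± 0.15 (SE; adjusted p = 0.0988 and 0.0947, edgeR). At an unadjusted p under 0.05, Ddit4 (0.83 ± 0.32) and P4ha2 (0.51 ± 0.20) were also higher and Bnip3l, given below, was lower (adjusted p = 0.165, 0.165 and 0.139, edgeR). Egln3 was at 1.57 ± 0.77, with 4.06 to 59.0 CPM in the libraries labelled deficient (SE; adjusted p = 0.243, edgeR). Well-known targets such as Vegfa (0.09 ± 0.14), Adm (-0.21 ± 0.22) and Car9 (0.08 ± 0.18), named after their values were seen, had adjusted p-values of 0.694, 0.555 and 0.803 in edgeR.

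In the branches of glucose use into the pentose phosphate route and glycogen, 15 of 19 tested genes had positive differences (52.0% of all genes tested had). Of 21 listed, 0 passed in edgeR (4 in DESeq2), and 4 were higher and 1 lower at an unadjusted p under 0.05, where 13.0% of all genes were higher and 11.8% lower (median log2 difference 0.16). These 5 genes are 26.3% of the 19 tested, near the 24.8% of all genes. The higher count was 8 without library 4 labelled deficient, and the lower count was 2 without library 3 and 3 without libraries 2 and 3 labelled deficient. Pgm2 (0.60 ± 0.13), a phosphoglucomutase, Gys1 (0.32 ± 0.08), the muscle-type glycogen synthase, and Ugp2 (0.46 ± 0.15), which makes UDP-glucose, lay wholly above the controls (adjusted p = 0.0906, 0.0906 and 0.123, edgeR). Pck2, the mitochondrial enzyme that makes phosphoenolpyruvate, lay wholly below them (-0.30 ± 0.09 SE; adjusted p = 0.108, edgeR). The shares over all genes tested were 7.61% wholly above and 8.66% wholly below the controls.

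In the mitophagy list, set beside Bnip3, 10 of 14 tested genes had negative and 4 positive differences (52.0% of all genes tested were positive). Of 15 listed, 0 passed in edgeR (5 in DESeq2), and 2 were higher and 5 lower at an unadjusted p under 0.05, where 13.0% of all genes were higher and 11.8% lower (median log2 difference -0.08). The higher count was 1 without control library 3 or 4, or without libraries 2 and 3 labelled deficient. Gabarapl1, an ATG8-family protein of the autophagosome, measured 144, 157, 179 and 196 CPM in deficient-labelled libraries 1 to 4, against 261, 241, 258 and 367 CPM in the controls (-0.74 ± 0.15 SE, adjusted p = 0.0906, edgeR). Map1lc3b, a protein of the same family, averaged 163.7 ± 9.82 CPM in the libraries labelled deficient and 208.6 ± 13.3 CPM in the controls, and Sqstm1, an autophagy cargo receptor, averaged 342.7 ± 27.0 CPM in the libraries labelled deficient and 416.9 ± 29.8 CPM in the controls (SD, n = 4 each; adjusted p = 0.0906 and 0.108, edgeR). Park2, the ubiquitin ligase parkin, was low, at 4.65 ± 0.879 CPM in the libraries labelled deficient and 6.98 ± 0.535 CPM in the controls (adjusted p = 0.104, edgeR). All 4, picked by their small p in this contrast, lay wholly below the controls. The 2 genes higher at an unadjusted p under 0.05, Optn (0.43 ± 0.14) and Becn1 (0.21 ± 0.07), lay wholly above them (SE; adjusted p = 0.125 and 0.14, edgeR). The shares over all genes tested were 8.66% wholly below and 7.61% wholly above the controls. Bnip3l, the closest relative of Bnip3 and counted in the hypoxia list, was at -0.15 ± 0.05 (SE; adjusted p = 0.139, edgeR).

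Genes whose levels followed those of Hk2 and Ldhb most closely over the 8 libraries were found among 12911 genes with a mean of at least 5 CPM, by the Pearson correlation of log2 CPM, as a description of likeness only. Those nearest Hk2 were Ciapin1 (likeness 0.997), Pdik1l (0.992), BC079836 (0.990), Trappc4 (0.988) and Adprh (0.988), though their own log2 differences were smaller, from 0.22 to 0.37. Those nearest Ldhb were Nsun2 (0.993), Trim3 (0.991), Tmem38a (0.990), Hdac11 (0.990) and Cdc25b (0.989), with log2 differences from -0.92 to -0.14. The libraries fall into the study's groups, and library 2 labelled deficient lies at the end of both orders, so such values rest on few independent points.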

How the data were processed

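RNA was extracted with TRIzol, per the labels. HISAT2 2.2.1, HTSeq 0.10.0 and mm10 are named in the submitters' processing notes, while settings such as strand are not given here. The authors deposited whole-number counts per gene symbol with no normalization, and columns were matched to samples by the code in each title. Genes were filtered with filterByExpr, scaled by TMM and tested for the effect of group with edgeR 4.0.16 (glmQLFit, glmQLFTest; R 4.3.3), with Benjamini-Hochberg adjustment over all 17629 genes. SE is the log2 difference divided by the root of its F value. The fit was tested on simulated data. No pair of libraries matched within counting noise (chi-square over its degrees of freedom at least 48.7).

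The members, and the lists of textbook pathway genes and cell type markers, were chosen with earlier results of these data known. Beside the members and Pgr, the text names up to 4 genes per pathway list with the smallest p under 0.05, the 5 genes nearest in pattern to the most positive and the most negative member, and further genes named after their values were seen, namely Gpi1, Aldoa, Gapdh, Pgam1, Tpi1, Eno1, Pgk1, Eno3, Pfkm, Mpc1, Slc16a1, Slc16a3, Bnip3l, Hk1os, Ldhc, Vegfa, Adm, Car9, Egln3, Ddit4, P4ha2, Optn and Becn1. A value that the rule would name is not reported here, though it stays in the counts. Of the listed genes 4 were found under an older symbol. Coordinates are from RefSeq, GRCm38.p6. Transcript lengths were not used here, so levels are not compared between genes. Alternatives were other scalings, other filters, DESeq2 1.42.0, limma-voom (limma 3.58.1), the replicate number as a block, and leaving out libraries. Same-numbered libraries did not deviate together in every pair (correlations 0.22, 0.29, -0.004 and -0.08), so the numbers were not taken as pairs.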

Additional observations from a re-analysis of the deposited data

Results flagged for a closer look

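Of 28 sets of 4 libraries examined (10 genes and 4 count ratios in each group), 3 held a library far from the other 3, by a gap to the nearest that was above Dixon's critical value as a share of the whole range; chance gives about 1 set in 20. Hk2 stood at 82.4 CPM in library 2 labelled deficient, with a gap of 0.926 of the range. The ratio of Hk2 to Hk1 counts stood at 0.529 in the same library (0.872 of the range), and it rests on the same Hk2 count. Ldhb stood at 258.8 CPM in control library 4 (0.845 of the range), on the side away from the libraries labelled deficient.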

How the results depend on the processing

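Over 17 alternatives, none of the 170 values of the 10 genes' log2 differences changed sign. On leaving out 1 library the value ran from 0.05 to 0.54 for Pfkfb3 (0.34 with all) and from 0.01 to 1.05 for Slc2a3 (0.75 with all), which was 1.48 without libraries 2 and 3 labelled deficient, an alternative chosen after seeing the data. Counts of genes passing the adjusted threshold depended on the tool: edgeR called 0, DESeq2 2488 and limma-voom 2, and with the replicate number as a block edgeR called 23. Among the 110 pathway genes tested, these numbers were 0 in edgeR, 25 in DESeq2, 0 in limma-voom and 1 with the replicate block; the cause was not tested. On leaving out 1 library, genes called over the whole table ran from 0 to 2, those higher at an unadjusted p under 0.05 from 1405 (without control library 4) to 2920 (2295 with all), and pathway genes higher at that level from 14 (without control library 4) to 32 (23 with all), with 15 without control library 1. Pathway genes lower at that level ran from 11 to 14 (14 with all).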
